A study of Mus musculus with 112 samples.

Results

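Snhg1, a mouse long noncoding RNA (lncRNA) gene that hosts small nucleolar RNAs (snoRNAs), was followed through every RNA fraction of a study of the spliceosomal particle U1 snRNP in mouse embryonic stem cells. It was taken as the row with the symbol Snhg1, identifier ENSMUSG00000108414.1, in each of 4 tables of lncRNA levels. It is 1 of 1624 lncRNAs that the 4 tables hold together, and 1 row carries its symbol in each table. Of the 112 samples of the study, 101 have a column of values that was used here.

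All cells were 46C embryonic stem cells of strain 129/Ola, or a line made from them, grown with serum and leukemia inhibitory factor. In the first experiment, cells were transfected with antisense morpholino oligos (AMOs) and collected after 2 h. The groups were U1 AMO at 75 µM, U2 AMO at 75 µM, U1 and U2 AMO together at 50 µM, stated without saying whether of each oligo or in sum (U1+U2 AMO), and a scrambled control AMO at 75 µM. Each was measured as total RNA in chromatin, nucleoplasm, cytoplasm and whole cells. In the second experiment, cells carried SNRNP70, a protein of the U1 particle, fused to an auxin-inducible degron (AID), which marks the fused protein for destruction when auxin (IAA) is added. SNRNP70-AID cells with 500 µM IAA for 4 h were set against the same line at 0 h, in total RNA of the same fractions and in polyA RNA of chromatin and whole cells. In the last experiment, SNRNP70-AID cells were given 500 µM IAA for 2 h and then IAA with 4-thiouridine (4sU) for 3 h, or 4sU alone for 3 h with no IAA. New RNA was read there by SLAM-seq, which counts reads with T-to-C changes at labelled uridines; chromatin was measured as total RNA and the other fractions as polyA RNA. All groups with and without IAA carry the degron. Groups have 3 libraries each, except whole cells with control AMO, with 2. The labels name no separate cultures for the libraries of a group, and a p-value here measures only how far these libraries spread, which may be technical. Levels of U1 snRNA, U2 snRNA and SNRNP70 are not among the lncRNA rows, so the block or loss of the target was not checked here.

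snoRNA host genes carry snoRNAs inside their introns. Splicing releases the introns, from which mature snoRNAs are trimmed, and leaves a spliced host RNA that for several hosts codes for no protein and is short-lived in the cytoplasm. U1 snRNP recognises the start of an intron by base pairing of U1 snRNA with the 5′ splice site, and U2 snRNP pairs with the branch site near the intron's end. An AMO covers the part of the snRNA that makes this contact.

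RefSeq places Snhg1 on chromosome 19 of build GRCm38.p6, at 8723487 to 8726326 on the plus strand, a span of 2840 bases. That span holds 8 snoRNA genes of 65 to 126 bases, which together take 21.8% of it. The first begins 506 bases after the start of the gene, neighbouring snoRNAs are 148 to 266 bases apart, and the last, Snord22, at 8725866 to 8725991, ends 335 bases before the gene's end. Exons were not drawn from the table used here. Slc3a2, which codes for an amino acid transporter subunit, lies on the minus strand at 8706882 to 8723369, so that it begins 117 bases from the start of Snhg1 and is transcribed away from it. Wdr74, which codes for a ribosome assembly factor, begins 9468 bases after it.

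The sequence around the start of Snhg1 is shown because it holds a stretch that can pair with U1 snRNA, beside the same window of Gas5 and Snhg12, the hosts set beside Snhg1 throughout. Each window runs from 50 bases before the annotated start to 50 bases from it, 5′ to 3′ on the transcribed strand, from RefSeq on GRCm38.p6. Capitals mark GTAAGT, the common first letters of an intron.
Snhg1, chr19:8723437-8723536, plus strand: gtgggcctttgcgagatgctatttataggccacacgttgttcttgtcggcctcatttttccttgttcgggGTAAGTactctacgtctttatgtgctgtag
Gas5, first listed start, chr1:161034551-161034650, plus strand: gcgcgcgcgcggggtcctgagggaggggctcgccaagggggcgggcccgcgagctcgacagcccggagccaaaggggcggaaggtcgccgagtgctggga
Gas5, second listed start, chr1:161035116-161035215, plus strand: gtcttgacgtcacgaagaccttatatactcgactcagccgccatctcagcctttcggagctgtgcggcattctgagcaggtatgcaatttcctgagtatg
Snhg12, chr4:132308628-132308727, plus strand: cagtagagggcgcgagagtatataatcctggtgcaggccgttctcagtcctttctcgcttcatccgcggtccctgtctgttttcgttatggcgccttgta

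In Snhg1 the match begins at base 21 of the transcript, counted from 1 at the annotated start. GTAAGT was found on the transcribed strand in the first 50 transcribed bases of 0.904% of 32851 promoter windows, and on either strand in 1.39%. None of the 24 windows of the 21 other hosts with an entry held it on the transcribed strand. Only this exact string was sought, so other stretches that can pair with U1 snRNA were not counted. A match of these letters is a description of the window and does not show a splice site or the binding of U1.

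Levels below are FPKM, fragments scaled to transcript length and sequencing depth, so they can be compared between genes. The authors scaled them to added spike-in RNA in the 3 fractions, while the headers name no such scaling for whole cells. SLAM-seq values are T-to-C reads scaled to spike-in RNA. The FPKM tables give no read depth. SLAM-seq values corresponded to whole reads, within 0.1 read, for 100% of values in every library, with 24927 to 227237 reads over all lncRNAs and 582 to 4514 reads from Snhg1. The median log2 difference over all lncRNAs tested on chromatin was -0.80 with U1 AMO, -0.14 with U2 AMO, -0.74 with U1+U2 AMO, -0.65 at 4 h of IAA in total RNA, -0.37 in polyA RNA and -0.41 in SLAM-seq. In nucleoplasm it was 0.45 with U2 AMO. Setting each library's median to the same value moved the chromatin calls with U1 AMO to 226 higher and 145 lower, against 64 higher and 651 lower as deposited. The same centring gave 188 higher and 103 lower with U1+U2 AMO, against 48 and 618, and 100 higher and 47 lower with U2 AMO, against 35 and 63. At 4 h of IAA it gave 265 higher and 210 lower in chromatin total RNA, against 40 and 588. It gave 232 higher and 201 lower in chromatin polyA RNA, against 109 and 448, 96 and 65 in SLAM-seq chromatin, against 24 and 142, and 95 and 37 in nucleoplasm with U2 AMO, against 221 and 0. In bulk RNA, fewer cells of a type and less RNA per cell cannot be told apart. The 8 stem cell lncRNAs of the marker list were all detected in whole cells, and their summed FPKM was 82.6 to 99.7 in whole cells with the U1, U2 and U1+U2 AMOs, against 111.8 to 118.8 with control AMO. The 6 measured markers of differentiated cells summed to 14.5 to 18.6 FPKM and 20.2 to 28.2 FPKM in the same groups. In whole cells of the SNRNP70-AID line, the stem cell list summed to 162 to 173 FPKM at 4 h, against 187 to 204 FPKM at 0 h, and the differentiation list to 41.3 to 44.9 FPKM, against 33.9 to 39.2 FPKM. Their part in the levels of Snhg1 was not tested.

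Snhg1 was one of the most abundant lncRNAs in every fraction. By group mean it stood between rank 11 and rank 30 from the highest of 1279 lncRNAs in the AMO groups and between rank 18 and rank 36 in total RNA of the SNRNP70-AID line. It stood between rank 14 and rank 29 of 1246 in polyA RNA, and between rank 3 and rank 11 of 492 in SLAM-seq. For SLAM-seq the headers name no scaling to transcript length, so those ranks also depend on the lengths of the genes' transcripts. With control AMO, Snhg1 averaged 148 ± 11 FPKM in chromatin, 202 ± 40 in cytoplasm, 51.0 ± 13 in nucleoplasm (SD, n = 3 each) and 77.9 ± 4.5 in whole cells (SD, n = 2). At 0 h of IAA it averaged 88.3 ± 10 FPKM in chromatin, 32.2 ± 2.7 in cytoplasm, 51.3 ± 3.2 in nucleoplasm and 41.6 ± 3.3 in whole cells (SD, n = 3 each). Mean levels in chromatin were thus above those in cytoplasm at 0 h of IAA and below them with control AMO.

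Malat1, one of the lncRNAs that serve as references for the fractions, split between the experiments in the same way. Malat1, which is retained in nuclei, averaged 831 ± 140 FPKM in chromatin, 1348 ± 137 in cytoplasm and 654 ± 198 in nucleoplasm with control AMO, so its highest level there was in the cytoplasm libraries. At 0 h of IAA, Malat1 averaged 1286 ± 119 FPKM in chromatin, 274 ± 32 in cytoplasm and 1325 ± 202 in nucleoplasm. Lncenc1, a stem cell lncRNA, did not, and was highest in cytoplasm in both, with 186 ± 22 FPKM with control AMO and 181 ± 13 FPKM at 0 h (SD, n = 3 each). The part of nuclear RNA in the cytoplasm libraries in the levels of Snhg1 was not tested.

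Relative to the mean of cytoplasm and nucleoplasm, chromatin Snhg1 was higher by a log2 difference of 0.57 with control AMO (limma, adjusted p = 0.0176) and 1.11 at 0 h of IAA in total RNA (adjusted p = 2.96e-07), but both differences took the opposite sign after centring, at -0.54 and -0.76. The control AMO call was lost without chromatin replicate 1, chromatin replicate 3 or nucleoplasm replicate 2, with adjusted p-values of 0.0590, 0.0565 and 0.0530. The median over all lncRNAs was larger in both cases, 1.10 and 1.87, and 59.3% and 68.8% of the 1277 lncRNAs tested were higher on chromatin. In polyA RNA, chromatin Snhg1 exceeded whole cells by 1.57 (adjusted p = 2.5e-10), against a median of 1.14 and a share of 64.6% higher. The headers name spike-in scaling for those chromatin values and none for the whole-cell values, so this difference compares unlike scales. In SLAM-seq without IAA, chromatin Snhg1 was lower than the mean of the other fractions by a log2 difference of -1.59 (adjusted p = 1.27e-08), against a median of -0.14 and a share of 38.0% lower. That last difference sets total RNA on chromatin against polyA RNA in the soluble fractions.

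U2 AMO raised Snhg1 in chromatin, nucleoplasm and whole cells, and the chromatin rise was among the largest of any lncRNA. In chromatin, Snhg1 stood at 509.75, 509.22 and 531.74 FPKM with U2 AMO, against 155.27, 136.36 and 153.78 FPKM with control AMO. The 3 U2 libraries lay close together and far above every control library. The log2 difference was 1.80 ± 0.17 (SE), a fold of 3.48 with a 95% confidence interval of 2.70 to 4.50 (limma, adjusted p = 0.00014), rank 3 of 1256 lncRNAs from the highest. Of those lncRNAs, 2.79% were called higher and 5.02% lower.

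In nucleoplasm, Snhg1 stood at 294.51, 231.91 and 313.38 FPKM with U2 AMO, against 58.51, 36.11 and 58.36 FPKM with control AMO. The groups did not overlap. The log2 difference was 2.47 ± 0.34 (SE), a fold of 5.56 with an interval of 3.33 to 9.28 (limma, adjusted p = 0.000243), at rank 7 of 1142, where 19.4% of lncRNAs were called higher and 0.00% lower. Whole cells had 176.97, 190.00 and 181.62 FPKM with U2 AMO, against 74.75 and 81.13 FPKM with control AMO. These groups were apart too, with a log2 difference of 1.23 ± 0.14 (SE; limma, adjusted p = 0.00307) at rank 19 of 1251 with 2.24% of lncRNAs called higher and 1.28% lower. Without control replicate 2, the adjusted p in whole cells was 0.0546.

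Cytoplasmic Snhg1 stood at 418.13, 382.30 and 381.95 FPKM with U2 AMO, against 240.95, 161.24 and 203.80 FPKM with control AMO. Every U2 library was above every control library. The log2 difference of 0.98 ± 0.22 (SE) lay just outside the threshold (limma, adjusted p = 0.0506), in a comparison where 0.403% of 1242 lncRNAs were called higher and 0.886% lower. It passed under 5 of the alternatives, among them the replicate block (adjusted p = 0.00798).

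U1 AMO left chromatin Snhg1 near the control level and raised it in the soluble fractions and in whole cells. In chromatin, Snhg1 stood at 138.33, 136.73 and 160.43 FPKM with U1 AMO, against 155.27, 136.36 and 153.78 FPKM with control AMO. The groups overlapped, and the log2 difference of -0.03 had a 95% confidence interval of -0.40 to 0.34 (limma, adjusted p = 0.873). Relative to the other lncRNAs it ranked 229 of 1256 from the highest, in a comparison where 51.8% were called lower and 5.10% higher. After centring, the sign turned and the difference passed the test at 0.81 (adjusted p = 0.00894).

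In nucleoplasm, Snhg1 stood at 148.70, 74.00 and 174.53 FPKM with U1 AMO, against 58.51, 36.11 and 58.36 FPKM with control AMO. Replicate 2 was the lowest library of both groups, yet the groups did not overlap. U1 AMO differed by a log2 of 1.32 ± 0.34 (SE), a fold of 2.49 with an interval of 1.49 to 4.16 (limma, adjusted p = 0.0178), with 10.5% of 1142 lncRNAs called higher and 3.68% lower. The call was lost without control replicate 2 (0.0672), U1 replicate 1 (0.067) or U1 replicate 3 (0.0826), as adjusted p-values.

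Cytoplasm had 410.56, 333.72 and 378.06 FPKM of Snhg1 with U1 AMO, against 240.95, 161.24 and 203.80 FPKM with control AMO. All U1 libraries exceeded all control libraries. Snhg1 differed by a log2 of 0.90 ± 0.22 (SE; limma, adjusted p = 0.0243), with 3.95% of 1242 lncRNAs called higher and 3.38% lower. Leaving out control replicate 2 or 3, or U1 replicate 1 or 3, ended the call, with adjusted p-values of 0.0861, 0.0738, 0.0764 and 0.0834 in that order.

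Whole cells had 131.73, 107.06 and 132.94 FPKM with U1 AMO, against 74.75 and 81.13 FPKM with control AMO. The groups were apart. The log2 difference was 0.66 ± 0.14 (SE; limma, adjusted p = 0.00922), with 6.24% of 1251 lncRNAs called higher and 7.19% lower. It did not pass without control replicate 1 (adjusted p = 0.0881).

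With both oligos together, Snhg1 did not pass the test in chromatin, nucleoplasm, cytoplasm or whole cells, with unadjusted p-values from limma of 0.0702, 0.267, 0.145 and 0.121 in that order. Chromatin had 129.48, 105.26 and 118.18 FPKM with U1+U2 AMO, against 155.27, 136.36 and 153.78 FPKM with control AMO. Here the U1+U2 libraries were all below the controls, by a log2 difference of -0.34 with an interval of -0.71 to 0.03 (limma, adjusted p = 0.111). With the replicate block the adjusted p was 0.0149, and after centring the sign turned, to 0.46. In this comparison 3.82% of 1256 lncRNAs were called higher and 49.2% lower.

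Nucleoplasmic Snhg1 stood at 58.68, 62.47 and 77.34 FPKM with U1+U2 AMO, against 58.51, 36.11 and 58.36 FPKM with control AMO. The lowest treated library lay only just above the highest control, and the log2 difference was 0.40 with an interval of -0.34 to 1.14 (limma, adjusted p = 0.511; 7.88% of lncRNAs called higher and 6.83% lower). Cytoplasm had 299.51, 195.96 and 272.02 FPKM with U1+U2 AMO, against 240.95, 161.24 and 203.80 FPKM with control AMO. These groups overlapped, with a log2 difference of 0.34 and an interval of -0.13 to 0.81 (limma, adjusted p = 0.371; 2.74% called higher and 5.48% lower). Whole cells had 84.74, 89.89 and 100.10 FPKM with U1+U2 AMO, against 74.75 and 81.13 FPKM with control AMO, a log2 difference of 0.23 with an interval of -0.07 to 0.53 (limma, adjusted p = 0.32; 6.24% called higher and 5.36% lower).

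**Figure D1:**
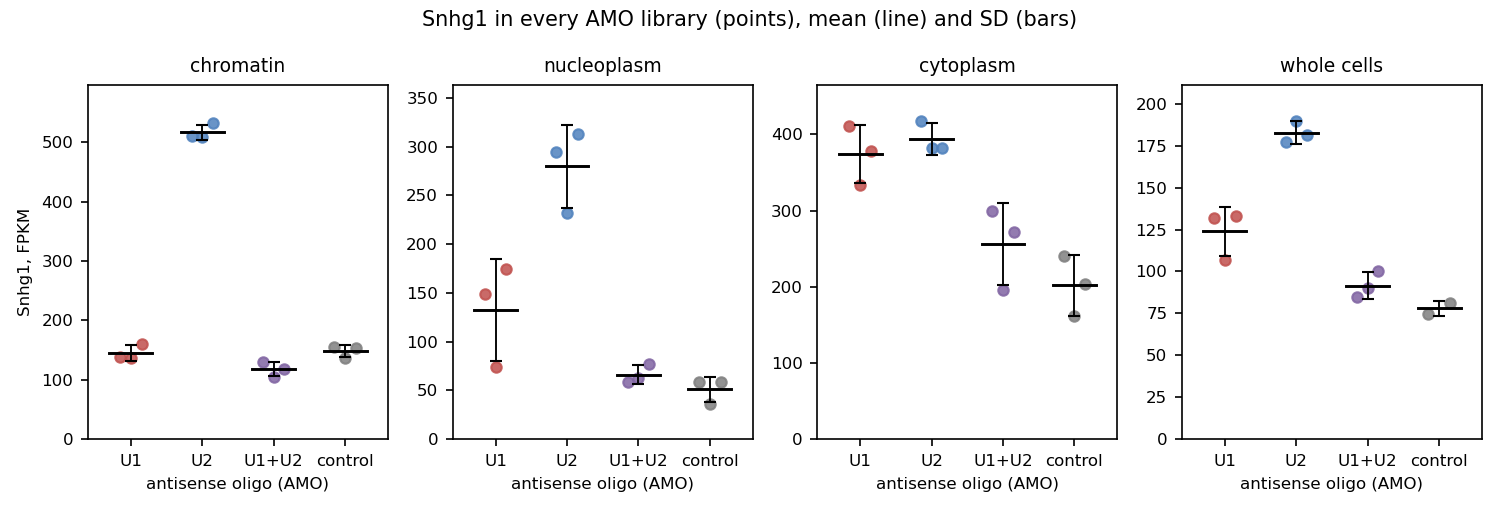
Snhg1 level in FPKM (vertical axes, from 0) in each library of the AMO experiment, by fraction; lines are group means and bars the SD. The U2 AMO libraries are highest in chromatin, between 509 and 532 FPKM, while U1 AMO and U2 AMO libraries overlap in cytoplasm.

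Setting the oligos against each other asked whether Snhg1 differed with the snRNA that was blocked. In chromatin, U1 AMO gave less Snhg1 than U2 AMO by a log2 difference of -1.83 with an interval of -2.20 to -1.46 (limma, adjusted p = 1.03e-05), in a contrast where 40.0% of 1256 lncRNAs were lower. In nucleoplasm the difference was -1.16 with an interval of -1.90 to -0.42 (adjusted p = 0.0262; 21.2% lower), and this call was lost after centring (adjusted p = 0.0758) and without U1 replicate 2, U2 replicate 1 or U2 replicate 3 (0.0867, 0.084 and 0.0694). In whole cells it was -0.57 with an interval of -0.84 to -0.30 (limma, adjusted p = 0.011; 9.03% lower). In cytoplasm the 2 oligos gave overlapping levels, with a log2 difference of -0.08 and an interval of -0.55 to 0.39 (limma, adjusted p = 0.926; 0.322% lower).

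The combination also fell short of U2 AMO alone. Snhg1 was lower with U1+U2 AMO than with U2 AMO by a log2 difference of -2.14 in chromatin (limma, adjusted p = 1.01e-05; 35.4% of lncRNAs lower), rank 1250 of 1256 from the highest. The difference was -2.08 in nucleoplasm (adjusted p = 0.000936; 30.3% lower) and -0.999 in whole cells (adjusted p = 0.000782; 7.27% lower). In cytoplasm it was -0.64 with an interval of -1.12 to -0.17 (limma, adjusted p = 0.161; 1.05% lower) and passed with the replicate block (0.0329). The stated oligo concentration was 50 µM for the combination and 75 µM for the single oligos, so dose and combination cannot be told apart.

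At 4 h of IAA in the SNRNP70-AID line, which has its own controls, Snhg1 rose in cytoplasm, nucleoplasm and whole cells, and did not pass in chromatin. Cytoplasmic Snhg1 stood at 73.79, 79.69 and 109.20 FPKM at 4 h of IAA, against 33.08, 29.10 and 34.31 FPKM at 0 h. The groups were far apart, with a log2 difference of 1.42 ± 0.18 (SE), a fold of 2.68 with an interval of 2.01 to 3.58 (limma, adjusted p = 0.00753), at rank 31 of 1089 lncRNAs, of which 2.66% were called higher and 1.01% lower. Without the mean-variance trend the adjusted p was 0.0504. Nucleoplasm had 111.32, 104.49 and 104.72 FPKM at 4 h, against 54.45, 48.02 and 51.56 FPKM at 0 h. No libraries overlapped, and the log2 difference was 1.06 ± 0.14 (SE; limma, adjusted p = 0.00257; 5.21% of 1209 called higher and 10.8% lower).

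Chromatin Snhg1 stood at 112.87, 102.69 and 104.85 FPKM at 4 h, against 89.36, 77.49 and 97.94 FPKM at 0 h. The 4 h libraries were all above the 0 h libraries by a small margin, and the log2 difference of 0.28 with an interval of -0.07 to 0.63 did not pass (limma, adjusted p = 0.169). It ranked 113 of 1260 from the highest where 46.7% of lncRNAs were called lower and 3.17% higher, and after centring it passed, at 1.02 (adjusted p = 0.000541). Whole cells had 82.17, 71.00 and 78.10 FPKM at 4 h, against 42.21, 37.98 and 44.56 FPKM at 0 h. This was a clear separation, with a log2 difference of 0.89 ± 0.10 (SE; limma, adjusted p = 0.00291; 5.31% of 1261 called higher and 6.50% lower).

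Polyadenylated Snhg1 rose in the same line. Whole cells had 119.92, 114.43 and 117.63 FPKM of polyA Snhg1 at 4 h of IAA, against 54.07, 46.94 and 55.45 FPKM at 0 h. The log2 difference was 1.17 ± 0.08 (SE), a fold of 2.25 with an interval of 1.99 to 2.55 (limma, adjusted p = 2.03e-05; 13.0% of 1135 called higher and 7.05% lower). On chromatin, polyA Snhg1 stood at 174.73, 181.73 and 174.42 FPKM at 4 h, against 157.49, 153.73 and 151.84 FPKM at 0 h. Here the groups were also apart, by a log2 difference of 0.20 ± 0.04 (SE; limma, adjusted p = 0.00696; 8.96% of 1217 called higher and 36.8% lower), which did not pass without the mean-variance trend (0.169).

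New Snhg1 RNA, labelled during 3 h, rose in the soluble fractions. Cytoplasmic Snhg1 gave a SLAM-seq signal of 11909.09, 13100.88 and 11936.31 with IAA, against 3485.03, 5593.22 and 3750.00 without IAA. The lowest IAA library was above the highest library without IAA, with a log2 difference of 1.56 ± 0.29 (SE), a fold of 2.94 with an interval of 1.97 to 4.38 (limma, adjusted p = 5.51e-06; 6.62% of 423 called higher and 4.02% lower). Nucleoplasm had signals of 8102.24, 7412.15 and 9372.88 with IAA, against 2832.46, 4466.80 and 3046.51 without IAA. IAA gave a log2 difference of 1.29 ± 0.21 (SE; limma, adjusted p = 4.43e-08; 17.8% of 490 called higher and 9.59% lower). The cytoplasmic call was lost without the trend (adjusted p = 0.126). Among the libraries without IAA, replicate 2 had the highest Snhg1 signal in both soluble fractions.

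Chromatin gave signals of 1050.09, 1334.60 and 1277.91 with IAA, against 1292.05, 1165.16 and 1284.88 without IAA. These groups overlapped, with a log2 difference of -0.04 and an interval of -0.34 to 0.27 (limma, adjusted p = 0.855), where 5.67% of 423 lncRNAs were called higher and 33.6% lower; the sign turned after centring, at 0.53 (adjusted p = 0.0125), and without IAA replicate 1, at 0.07. Counted in whole reads, Snhg1 supplied 4.58% to 6.36% of cytoplasmic lncRNA reads with IAA, against 2.16% to 2.83% without IAA. In nucleoplasm it supplied 5.02% to 5.29% with IAA, against 2.74% to 3.64% without IAA. On chromatin its share of lncRNA reads was 0.829% to 0.979% with IAA, against 0.736% to 0.883% without IAA. edgeR's quasi-likelihood test on those reads gave log2 differences of 1.53 in cytoplasm (adjusted p = 3.82e-05), 1.27 in nucleoplasm (9.18e-07) and -0.03 on chromatin (0.891); over all lncRNAs it called 21 higher and 18 lower in cytoplasm, 83 and 40 in nucleoplasm and 24 and 133 on chromatin.

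**Figure D2:**
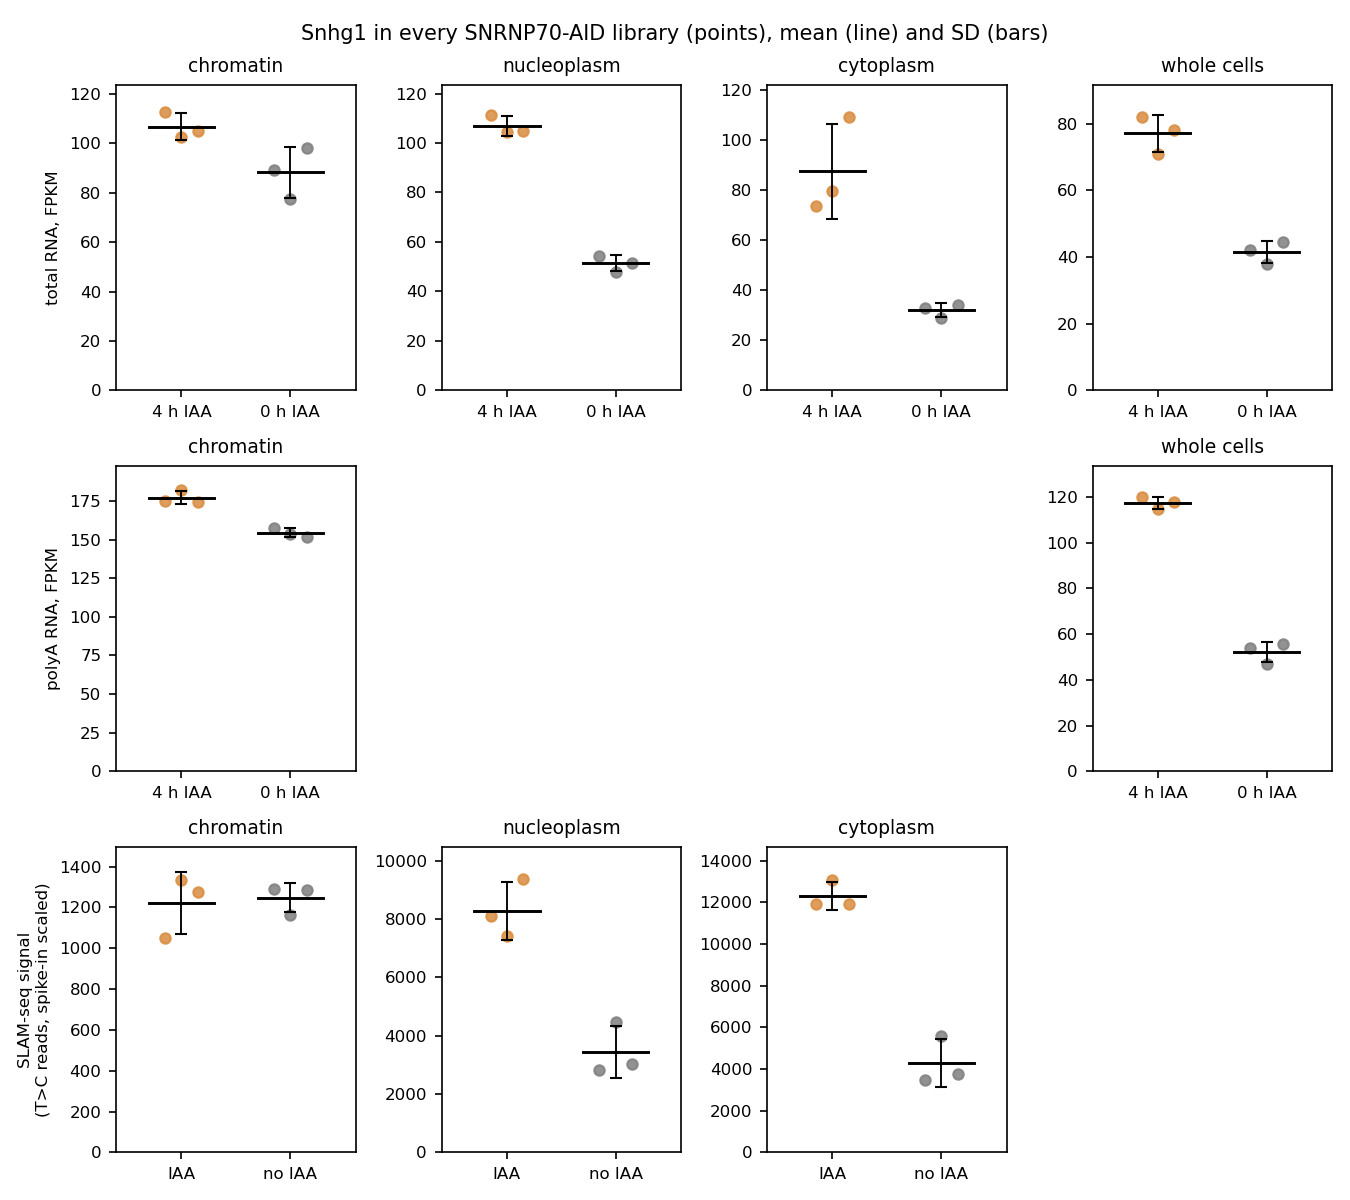
Snhg1 in each library of the SNRNP70-AID line, as total RNA (top, FPKM), polyA RNA (middle, FPKM) and SLAM-seq signal (bottom, spike-in-scaled T-to-C reads); lines are group means, bars the SD, and all vertical axes start at 0. The libraries with IAA stand above those without in every panel except SLAM-seq chromatin, where the groups overlap.

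**Figure D3:**
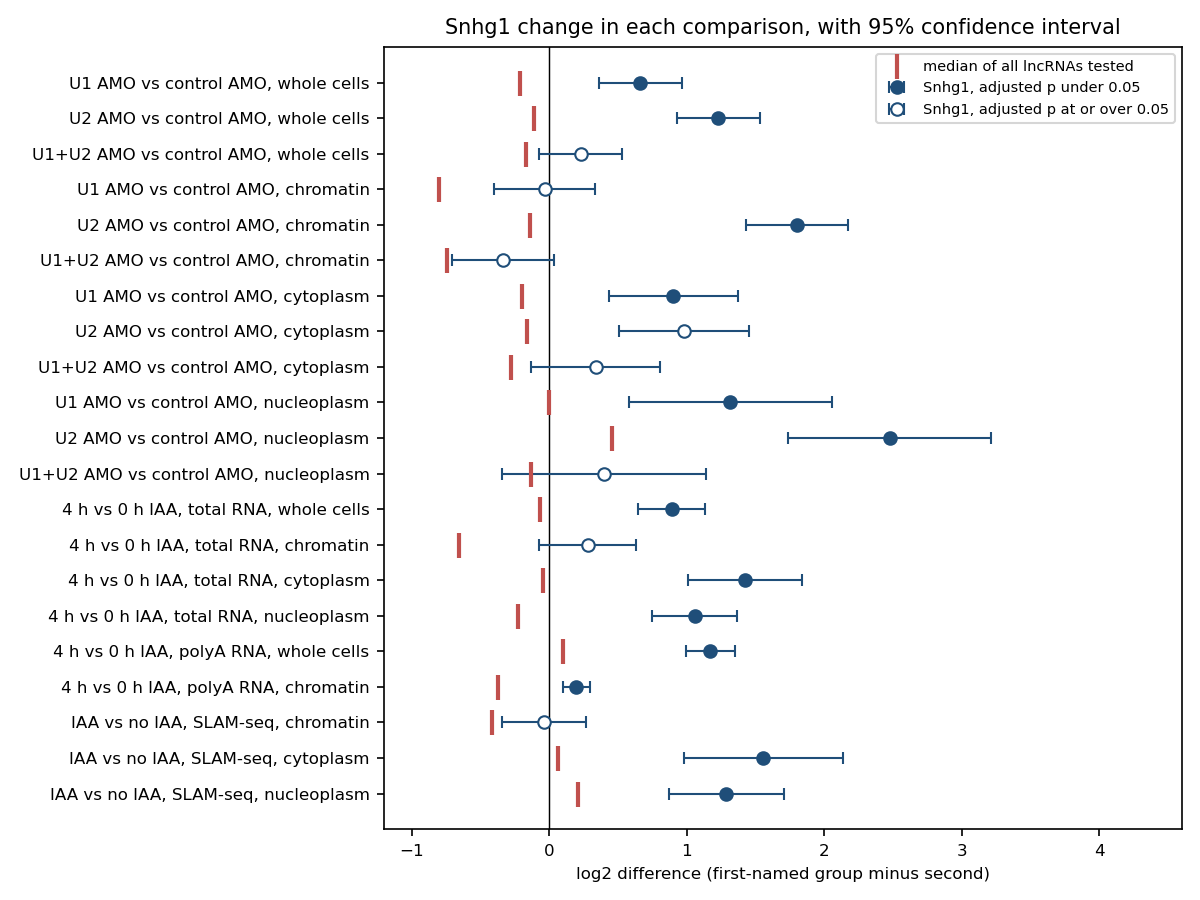
Log2 difference of Snhg1 with its 95% confidence interval (blue) in each comparison, filled where the adjusted p was under 0.05, beside the median of all lncRNAs tested (red bar). On chromatin, the difference passed with U2 AMO and in polyA RNA at 4 h of IAA; with U1 AMO, with U1+U2 AMO and in SLAM-seq its sign turned after centring.

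Whether Snhg1 changed unequally between fractions was tested in 1 fit over the fractions of each table. This fit, and that of chromatin against the other fractions above, treated libraries of the same number as independent across fractions. The shift is the log2 difference in chromatin less the average log2 difference of the soluble fractions. With U1 AMO this shift was -1.14 with an interval of -1.76 to -0.53 (limma, adjusted p = 0.0112; 19.7% of 1277 lncRNAs shifted lower). At 4 h of IAA in total RNA it was -0.96 with an interval of -1.33 to -0.59 (limma, adjusted p = 0.00144; 19.2% lower). In polyA RNA, where whole cells take the place of the soluble fractions, it was -0.97 (adjusted p = 1.44e-05; 18.4% of 1234 lower), and in SLAM-seq it was -1.46 (adjusted p = 0.000364; 4.88% of 492 lower). The median shift of all lncRNAs was -0.66, -0.57, -0.49 and -0.52 in these 4 comparisons, so most lncRNAs moved in the same direction. The polyA shift sets spike-in-scaled chromatin against whole cells, for which the headers name no such scaling. The SLAM-seq shift sets total RNA on chromatin against polyA RNA in the soluble fractions. After centring, the shift of Snhg1 no longer passed with U1 AMO (-0.31, adjusted p = 0.688) or at 4 h of IAA in total RNA (-0.35, adjusted p = 0.291).

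With U2 AMO the shift was 0.07 with an interval of -0.54 to 0.68 (limma, adjusted p = 0.965; 0.548% of lncRNAs shifted lower), as Snhg1 was higher on both sides of the comparison. With U1+U2 AMO it was -0.71 with an interval of -1.32 to -0.09 (limma, adjusted p = 0.125; 8.38% lower), which passed with the replicate block (0.0452).

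Summing the levels of the 3 fractions gives the share that each held. Chromatin held 22.3% of Snhg1 with U1 AMO, 43.4% with U2 AMO, 26.8% with U1+U2 AMO and 37.0% with control AMO. By library number, the chromatin share ran over 19.8% to 25.1%, 41.7% to 45.3%, 25.3% to 28.9% and 34.1% to 40.9% in those groups. Shares were not computed for other lncRNAs, so how often such ranges lie apart is not known. The shift did not pass its test with U2 AMO (0.07, limma, adjusted p = 0.965) or with U1+U2 AMO (-0.71, adjusted p = 0.125). Nucleoplasm held 20.3%, 23.5% and 15.0% with U1, U2 and U1+U2 AMO, against 12.7% with control AMO. At 4 h of IAA chromatin held 35.5% of Snhg1 in total RNA, against 51.4% at 0 h, while cytoplasm held 29.1% against 18.7%. In SLAM-seq chromatin held 5.59% with IAA, against 13.9% without IAA. These SLAM-seq shares add total RNA on chromatin to polyA RNA of the other fractions. The summed level was 652 FPKM with U1 AMO, 1191 with U2 AMO and 440 with U1+U2 AMO, against 401 FPKM with control AMO, and 301 FPKM at 4 h of IAA, against 172 FPKM at 0 h. These shares rest on the spike-in scaling of each fraction and were not tested.

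**Figure D4:**
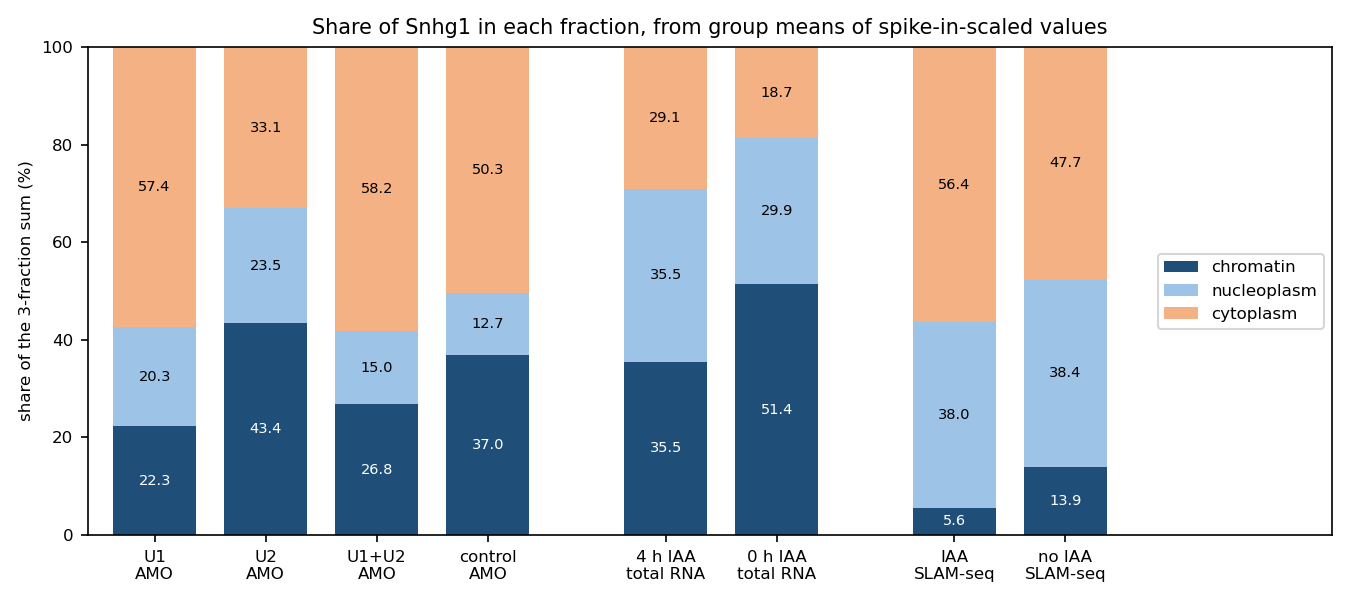
Percent of the summed Snhg1 level of chromatin, nucleoplasm and cytoplasm that each fraction held, from group means of spike-in-scaled values. In SLAM-seq, chromatin was measured as total RNA and the other fractions as polyA RNA. Chromatin takes 22.3% with U1 AMO and 43.4% with U2 AMO, against 37.0% with control AMO, and 35.5% at 4 h of IAA, against 51.4% at 0 h.

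Ranked over the 12 spike-in-scaled AMO groups, the mean of Snhg1 was highest in U2 AMO chromatin (517 FPKM), followed by U2 AMO cytoplasm (394) and U1 AMO cytoplasm (374), whose libraries overlapped each other. U2 AMO nucleoplasm (280), U1+U2 AMO cytoplasm (256) and control cytoplasm (202) came next, and neighbours within this run overlapped. The run was apart from U1 AMO cytoplasm above it and from control chromatin below it. The middle of the order, from control chromatin (148) over U1 AMO chromatin (145) and U1 AMO nucleoplasm (132) to U1+U2 AMO chromatin (118), likewise had no gap between neighbours. U1+U2 AMO nucleoplasm (66.2) and control nucleoplasm (51.0) were lowest and apart. Whole cells ran over U2 AMO (182.9), U1 AMO (124), U1+U2 AMO (91.6) and control AMO (77.9), with every neighbour apart. In total RNA of the SNRNP70-AID line, nucleoplasm (107) and chromatin (107) at 4 h headed the order and overlapped, and cytoplasm at 0 h (32.2) was lowest. In SLAM-seq, cytoplasm with IAA (a mean signal of 12315) was highest and chromatin was lowest in both groups (1221 with IAA and 1247 without IAA), and overlapped. Chromatin was measured there as total RNA and the other fractions as polyA RNA.

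Among the 639 lncRNAs with a mean of at least 1.15 FPKM over the AMO libraries, the median of the table, the pattern most like that of Snhg1 over the 16 AMO group means was that of another host, Gas5 (Pearson r = 0.93 on the log2 scale). Snhg17, a snoRNA host too, came next (r = 0.91), followed by Gm37154 (0.89), Gm43375 (0.86) and Gm42793 (0.86). The median lncRNA had r = 0.46. Over the 8 groups of total RNA of the SNRNP70-AID line, the same lncRNAs had r = 0.81, 0.85, 0.56, 0.70 and 0.28 in that order. All points share fractions and libraries, so these values describe likeness and carry no test.

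The tables hold 18 other genes of a list of snoRNA hosts, and these did not move as one. The list also holds Mirg, which hosts microRNAs, and the counts of hosts below include it where it was tested. Of 15 hosts tested after U2 AMO, 2 rose and 1 fell in chromatin (3 and 0 after centring), where 2.79% of all lncRNAs were higher and 5.02% lower. The hosts' median was 0.20, against -0.14 for all lncRNAs, and Snhg1 had a larger log2 difference than each of them. Gas5 rose there by 1.15 (limma, adjusted p = 0.00431) and Snhg12 by 1.12 (0.00452), and Mirg, an imprinted microRNA host on the list, fell by 0.77 (0.0232). In nucleoplasm 7 of 15 rose and 0 fell by limma, where 19.4% of all lncRNAs were higher, with a median of 0.79 against 0.45. These counts of hosts were 5 and 0 after centring, and 10 and 0 at an unadjusted p under 0.05. Gas5 reached 2.40, Snhg17 2.39, 1110038B12Rik 1.62, Snhg12 1.57, Snhg15 1.38 and Snhg6 1.22. In cytoplasm and whole cells, where 0.403% and 2.24% of all lncRNAs were higher, 2 hosts rose each and 0 fell by limma (5 and 0, and 4 and 3, at an unadjusted p under 0.05). These were Gas5 by 1.06 and 1.07 and 1110038B12Rik by 1.18 and 0.89, while Snhg12 had 0.44 (adjusted p = 0.423) and 0.43 (0.125).

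After U1 AMO, 1 of 15 hosts rose and 4 fell in chromatin (6 and 1 after centring), where 5.10% of all lncRNAs were higher and 51.8% lower, with a median of -0.32 against -0.80. The share of hosts that fell was thus not above that of all lncRNAs. Snhg12 rose by 1.12 (limma, adjusted p = 0.000542), Mirg had -1.45 and Snhg6 -0.97, while Gas5 at -0.69 and Dancr at -0.68 took the opposite sign after centring. In cytoplasm 4 rose and 1 fell (median 0.37 against -0.20), where 3.95% of all lncRNAs were higher and 3.38% lower: Snhg12 had 1.85, Snhg3 1.11, Dancr 1.081, 1110038B12Rik 0.81 and 2410006H16Rik -1.30. In nucleoplasm, where 10.5% of all lncRNAs were higher, Snhg12 (2.24), Snhg15 (1.51) and Snhg17 (1.18) rose, and in whole cells, where 6.24% were, Snhg12 (1.50) and Snhg3 (0.58). Gas5, the lncRNA most like Snhg1 over all AMO groups, did not pass with U1 AMO in cytoplasm (0.45, adjusted p = 0.177), nucleoplasm (0.60, adjusted p = 0.298) or whole cells (0.21, adjusted p = 0.395). The difference between the genes was not tested.

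After U1+U2 AMO, Snhg12 rose in every fraction, by 1.06 in chromatin, 1.66 in cytoplasm, 1.75 in nucleoplasm and 1.51 in whole cells, where Snhg1 did not pass. Of 15 hosts, 6 fell in chromatin and 1 rose (0 and 3 after centring), where 49.2% of all lncRNAs were lower and 3.82% higher, so the share that fell was not above that of all lncRNAs; Snhg6 (-1.10), Mirg (-1.08) and Gas5 (-0.85) kept their sign after centring, and Snhg8 (-0.67), Snhg5 (-0.58) and Dancr did not. In cytoplasm, where 2.74% of all lncRNAs were higher, 3 hosts rose, with Snhg3 at 0.82 and Dancr at 1.12, and Gas5 had 0.07 (adjusted p = 0.837). Gas5 was at -0.08 in nucleoplasm (adjusted p = 0.912) and -0.06 in whole cells (0.86), where 2410006H16Rik had -1.03 (0.0138).

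At 4 h of IAA in total RNA, 8 of 15 hosts rose and 1 fell in whole cells (median 0.49 against -0.07), where 5.31% of all lncRNAs were higher and 6.50% lower. Snhg12 had 1.68, Snhg3 1.27, Epb41l4aos 1.16, Snhg20 1.12, Snhg5 0.91 and Gas5 0.65. In cytoplasm, where 2.66% of all lncRNAs were higher, 5 rose, Snhg12 (1.87), Snhg5 (1.54), Snhg3 (1.49), Dancr (1.09) and Gas5 (0.91). In nucleoplasm 6 rose and 1 fell (11 and 0 after centring), where 5.21% of all lncRNAs were higher and 10.8% lower, with Snhg12 at 1.27, Snhg20 at 0.94, Snhg3 at 0.93, Gas5 at 0.76, Snhg17 at 0.71 and Snhg6 at -0.57. In chromatin 4 rose and 5 fell (8 and 1 after centring), where 3.17% of all lncRNAs were higher and 46.7% lower. Snhg12 had 1.31, Snhg3 0.77, Mirg -1.24 and Snhg6 -1.02, Rian had -0.64 with the opposite sign after centring, and Gas5 had 0.22 (limma, adjusted p = 0.323).

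In polyA RNA at 4 h, 11 of 15 hosts rose and 1 fell in whole cells (median 0.43 against 0.10), where 13.0% of all lncRNAs were higher and 7.05% lower, with Snhg5 at 1.21, Snhg17 at 1.09, Snhg20 at 1.06, Gas5 at 0.95, Snhg8 at 0.74 and Snhg12 at 0.39. On chromatin 3 rose and 6 fell (7 and 2 after centring; median -0.16 against -0.37), where 8.96% of all lncRNAs were higher and 36.8% lower. There 1110038B12Rik had -0.99, Snhg6 -1.22, Rian -0.62, Snhg17 0.72 and Gas5 0.20, and Snhg12 had -0.20 with the opposite sign after centring. In SLAM-seq, 7 of 17 hosts rose in cytoplasm (median 0.41 against 0.07), where 6.62% of all lncRNAs were higher and 4.02% lower, with Gas5 at 3.01, Dancr at 2.21, Snhg17 at 1.45, 1110038B12Rik at 1.29 and Snhg20 at 1.14, and Snhg12 had 0.13 (limma, adjusted p = 0.871). In nucleoplasm 11 of 18 rose and 1 fell (11 and 3 after centring), where 17.8% of all lncRNAs were higher and 9.59% lower. The hosts' median there was 0.81 against 0.21, with Gas5 at 2.09, Epb41l4aos at 1.88, Dancr at 1.77, Snhg20 at 1.34, 1110038B12Rik at 1.22 and Snhg12 at 0.63. On chromatin 5 of 17 rose and 2 fell (9 and 2 after centring; median 0.08 against -0.41), where 5.67% of all lncRNAs were higher and 33.6% lower, with Epb41l4aos at 1.53, Gas5 at 0.98, Snhg20 at 0.83, Mirg at -2.50 and Snhg14 at -1.71, and Snhg12 had 0.08 (adjusted p = 0.763).

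**Figure D5:**
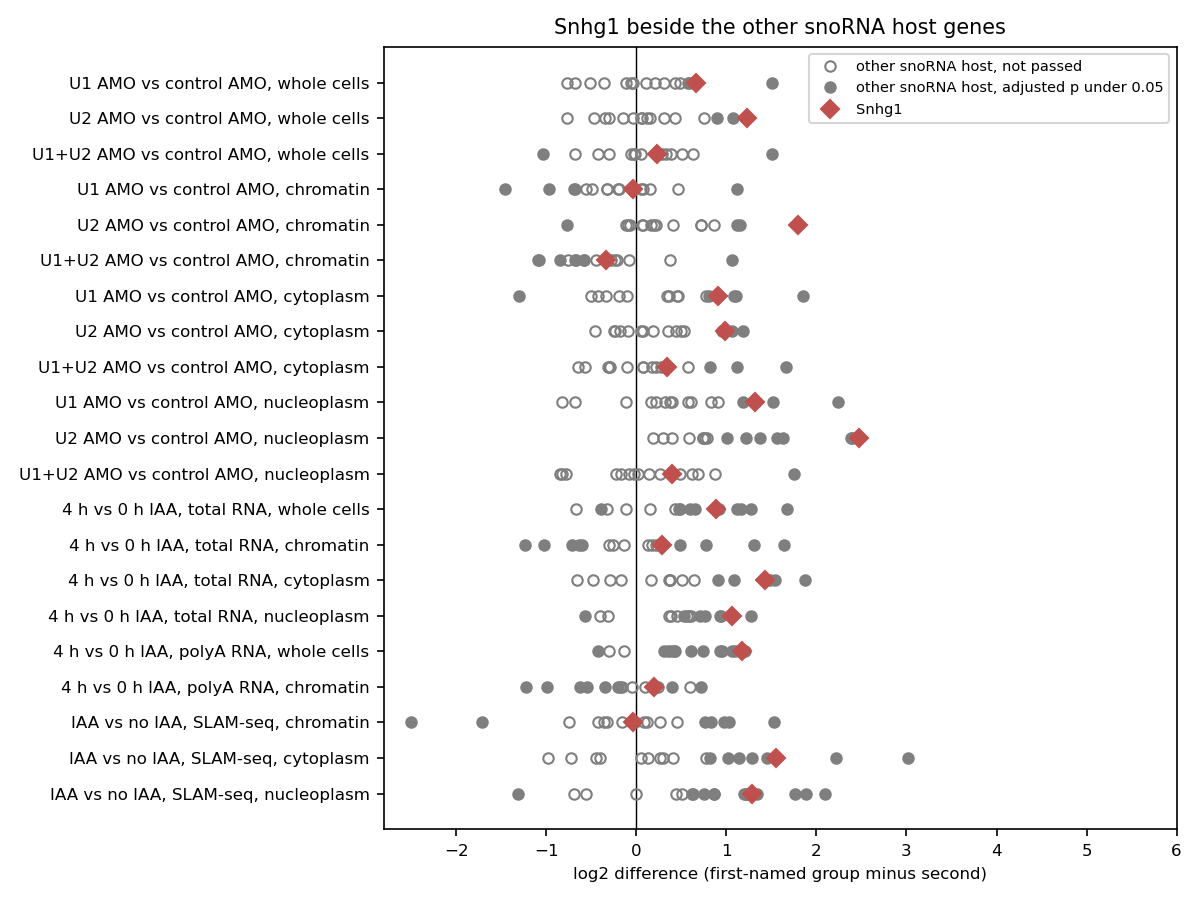
Log2 difference of each other gene of the snoRNA host list (grey, filled where the adjusted p was under 0.05) beside Snhg1 (red diamond) in each comparison. Snhg1 lies to the right of the other hosts with U2 AMO in chromatin, nucleoplasm and whole cells, and within their range in the other comparisons plotted.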

How the data were processed

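RNA fractions were profiled by RNA-seq and SLAM-seq. Per the submitters' processing notes, CASAVA, TopHat, Cufflinks and build mm10 were used; how reads of snoRNAs inside Snhg1 were counted is not given in the sources used here. The FPKM values are as deposited by the authors, scaled to spike-in RNA for the fractions per the file headers, with unknown depth. The SLAM-seq signal values are as deposited by the authors: T-to-C reads scaled to spike-in RNA per the file headers. 1 column of values was not used, because its name gives no fraction; the header of the third U1 AMO whole-cell column names no unit, and it was read as FPKM like the others. Peak lists and other assays were not analysed here.

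From these, log2(value + pseudocount) was formed with a pseudocount of 0.2 (AMO), 0.1 (total and polyA RNA of the SNRNP70-AID line) or 8.0 (SLAM-seq), and lncRNAs at or above it in fewer than 3 libraries were left out. limma 3.58.1 (R 4.3.3) was fitted per fraction with all groups, with moderated variances and a mean-variance trend, two-sided, and Benjamini-Hochberg adjustment over all lncRNAs tested (threshold 0.05). The fit was tested on simulated data. edgeR 4.0.16 was run on recovered SLAM-seq reads. Contrasts in one table share control libraries. Alternatives were other pseudocounts, no filter, centring on library medians, no trend, the compared groups alone, a replicate block and leaving out each library. Same-numbered libraries deviated together in every AMO contrast in chromatin (lowest correlation 0.284) and nucleoplasm (0.100) and in cytoplasm in the contrasts of U1 AMO with control AMO and of U2 AMO with both other treatments; elsewhere not every pair was over 0.1. No identical libraries were found.

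Snhg1, the host and marker lists and the tests were chosen with earlier results of these data known. Besides Snhg1, the text names Gas5 and Snhg12 throughout, up to 4 other hosts per comparison with the lowest adjusted p under 0.05, and the 5 lncRNAs most correlated with Snhg1 over the AMO groups. Locus and sequences are from RefSeq (GRCm38.p6).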

Additional observations from a re-analysis of the deposited data

Results flagged for a closer look

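The change of Snhg1 on chromatin differed from its change elsewhere by a test of the difference itself in 4 comparisons. The log2 change on chromatin less that of the soluble fractions was -1.14 with U1 AMO, -0.96 at 4 h of IAA in total RNA and -1.46 with IAA in SLAM-seq. In polyA RNA at 4 h of IAA, chromatin less whole cells gave -0.97, where the headers name spike-in scaling for chromatin and none for whole cells. The median lncRNA shifted in the same direction, by -0.66, -0.57 and -0.52 in the first 3 and by -0.49 in polyA RNA. After centring, the shift no longer passed with U1 AMO (-0.31, limma, adjusted p = 0.688) or at 4 h of IAA in total RNA (-0.35, adjusted p = 0.291). The SLAM-seq value sets total RNA on chromatin against polyA RNA elsewhere, and the part of this difference was not tested.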

How the results depend on the processing

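Of 39 results on Snhg1, 21 kept their direction and their side of the threshold under every alternative other than leaving out a library, and 19 under all alternatives run. In the following, adjusted p-values are from limma and the cause of each change was not tested. With the compared groups alone, which leaves fewer libraries to estimate the spread, U1 AMO against control AMO no longer passed in whole cells (0.66, adjusted p = 0.0730), cytoplasm (0.90, 0.0615) and nucleoplasm (1.32, 0.0622), nor did U1 AMO against U2 AMO in nucleoplasm (-1.16, 0.0613). Centring libraries on their medians turned the sign on chromatin with U1 AMO (0.81), U1+U2 AMO (0.46) and IAA in SLAM-seq (0.53), and of chromatin against soluble fractions with control AMO (-0.54) and at 0 h of IAA in total RNA (-0.76). Centring also brought U2 AMO in cytoplasm (1.14, 0.0348) and 4 h of IAA on chromatin in total RNA (1.02) past the threshold, and took U1 AMO against U2 AMO in nucleoplasm (-0.72, 0.0758), the shift with U1 AMO (-0.31) and the shift at 4 h of IAA in total RNA (-0.35) out of it. With the replicate block, U1+U2 AMO on chromatin (-0.34, 0.0149), U2 AMO in cytoplasm (0.98, 0.00798), U1+U2 AMO against U2 AMO in cytoplasm (-0.64, 0.0329) and the shift with U1+U2 AMO (-0.71, 0.0452) passed; the block changed no other call. Without the mean-variance trend, U1 AMO in cytoplasm (0.90, 0.0585), 4 h of IAA in cytoplasm (1.42, 0.0504), polyA RNA on chromatin (0.20, 0.169) and SLAM-seq cytoplasm (1.56, 0.126) did not pass. U2 AMO in cytoplasm passed with a pseudocount of 1 (0.98, 0.0431) or 0.01 (0.98, 0.0492) and with no filter (0.98, 0.0500).

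Leaving out 1 library at a time gave log2 differences of 0.60 to 0.76 for U1 AMO in whole cells, 1.17 to 1.29 for U2 AMO in whole cells, -0.11 to 0.0073 for U1 AMO on chromatin, 0.75 to 1.04 for U1 AMO in cytoplasm and 1.07 to 1.69 for U1 AMO in nucleoplasm. U1 AMO against U2 AMO ran over -0.15 to 0.00076 in cytoplasm and -1.40 to -0.78 in nucleoplasm, SLAM-seq chromatin over -0.10 to 0.067, and chromatin against soluble fractions with control AMO over 0.46 to 0.64. Where only 1 control library of whole cells was left, it was assumed to vary like the other groups. FPKM carry no depth, so no counting error is given for them, and 2 or 3 libraries a group limit all tests.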
